A study of Mus musculus with 6 samples.

Results

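The gene set described here joins the transcription factors YAP, TAZ and TEAD and their targets with the serum response factor gene Srf and the genes of the contractile cytoskeleton. It holds 44 named genes, taken by symbol from the deposited count table, in which all 44 had a row among 25189 gene symbols. The genes were sorted by role into 4 YAP, TAZ and TEAD factors, 7 YAP targets and regulators, Srf, 5 actins, 7 thin-filament binding proteins, 5 myosins, 4 tropomyosins, 5 adhesion and cross-linking proteins, 4 LIM-domain scaffolds and 2 intermediate filament proteins. The sequenced RNA was labelled as that of kidney from male, wild-type C57BL/6 mice at day 2. All of the animals had ischaemia and reperfusion (I/R), an injury in which the blood flow of the kidney is stopped and restored. There were 3 libraries with I/R only and 3 with I/R and C9, read here as the chemerin-9 of the series' design text, a short peptide agonist of the chemerin receptor. The labels give no age, dose, route or uninjured group, so each value below compares libraries labelled as injured kidney, with and without chemerin-9.

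YAP and TAZ (the gene Wwtr1) are co-activators that are held in the cytoplasm when the Hippo kinases phosphorylate them and that otherwise bind TEAD factors in the nucleus. SRF is a transcription factor that binds a DNA element called the CArG box, and its co-activators MRTF-A and MRTF-B are kept inactive by monomeric actin, so that actin assembly and SRF activity are linked. In the injured kidney both routes are known for their part in tubule repair, in the change of fibroblasts into contractile myofibroblasts and in fibrosis, and vimentin is a familiar marker of dedifferentiated, repairing tubule cells.

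The libraries held 11217252 to 16938301 counts. The chemerin-9 columns of the count table are named IC, and the sample labels name another letter for them. IC was taken to stand for I/R with C9, and every statement on chemerin-9 rests on that reading. The treatment field of the labels reads C9, C10 and C11 in turn where the titles read C9. Each library has a batch value of its own, so batch and group cannot be told apart. Whether each library is a separate mouse is not said, so p-values measure only the spread of these libraries, which may be technical. Defining markers of the labelled tissue were low, so they do not bear out the kidney label. Which cells were sequenced was not tested. The 6 nephron markers with a row, of 13 listed, summed to 18.1 to 20.8 CPM (counts scaled to a common library size) in I/R and 22.8 to 26.3 CPM with chemerin-9, of which 11.1 to 18.7 CPM was Podxl, a podocyte and endothelial glycoprotein. The 3 endothelial genes with a row, of 6 listed, summed to at most 1.99 CPM and the 4 leukocyte genes, of 7, to at most 6.78 CPM in any library. In bulk RNA, fewer cells of a type and less RNA per cell cannot be told apart, and this holds for each fall or rise below.

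Promoters of a few genes were chosen for the CArG boxes or TEAD sites they hold and are shown first, because the CArG box and the TEAD site are the letters by which SRF and TEAD are known to find their targets. RefSeq promoter windows (GRCm38.p6) of 300 bases, from 250 before to 50 after the transcript start, were found for 38 of the 44 genes. In each window the CArG box and the TEAD hexamer CATTCC, or its reverse complement GGAATG, were searched on both strands. The windows of Srf (chr17:46556113-46556412, minus strand), Actg1 (chr11:120348446-120348745, minus strand) and Acta1 (chr8:123894726-123895025, minus strand) follow, 5′ to 3′ along the gene, with CArG boxes in capitals. Srf holds a pair of boxes that begin 82 and 62 bases before its start, and Actg1 and Acta1 hold 1 box each, at 90 and 73 bases.
Srf: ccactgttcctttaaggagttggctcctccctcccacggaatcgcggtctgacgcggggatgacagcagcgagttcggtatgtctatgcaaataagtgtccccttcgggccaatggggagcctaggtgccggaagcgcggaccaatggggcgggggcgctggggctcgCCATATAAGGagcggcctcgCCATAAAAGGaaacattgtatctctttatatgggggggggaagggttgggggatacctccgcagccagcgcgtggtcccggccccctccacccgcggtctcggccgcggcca
Actg1: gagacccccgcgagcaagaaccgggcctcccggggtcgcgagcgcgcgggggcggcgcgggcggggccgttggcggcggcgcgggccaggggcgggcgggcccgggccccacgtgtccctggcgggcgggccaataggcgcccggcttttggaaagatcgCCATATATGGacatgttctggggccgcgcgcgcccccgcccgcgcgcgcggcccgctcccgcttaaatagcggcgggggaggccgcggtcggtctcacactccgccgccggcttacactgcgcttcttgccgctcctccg
Acta1: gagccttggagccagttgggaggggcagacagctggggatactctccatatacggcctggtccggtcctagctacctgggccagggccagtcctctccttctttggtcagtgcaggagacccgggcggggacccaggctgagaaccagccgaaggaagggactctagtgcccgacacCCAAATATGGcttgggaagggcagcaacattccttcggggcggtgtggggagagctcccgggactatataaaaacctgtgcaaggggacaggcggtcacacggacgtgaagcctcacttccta

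The window of Ankrd1 (chr19:36119795-36120094, minus strand), a classical YAP target, is shown for its TEAD hexamers, in capitals, which begin 210 and 123 bases before the start.
Ankrd1: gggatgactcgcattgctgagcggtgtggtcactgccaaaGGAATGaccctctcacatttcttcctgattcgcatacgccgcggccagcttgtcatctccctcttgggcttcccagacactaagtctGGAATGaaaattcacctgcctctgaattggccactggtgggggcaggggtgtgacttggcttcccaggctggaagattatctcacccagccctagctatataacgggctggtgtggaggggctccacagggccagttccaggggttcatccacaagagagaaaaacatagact

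The other CArG boxes of the set are shown with 10 bases on each side, box in capitals, to show how the core letters differ between genes. Those of Cnn2 (chr10:79988534-79988563, plus strand), Myl6 (chr10:128493040-128493069, minus strand) and Vcl (chr14:20929161-20929190, plus strand) belong to genes that fell. The Myl6 window (chr10:128492960-128493259) is that of a transcript start inside the gene, which extends to 128494145. Those of Myl9 (chr2:156775293-156775322, plus strand) and Fhl2 (chr1:43163973-43164002 and chr1:43196838-43196867, minus strand, in windows of 2 transcript starts) belong to genes that did not pass the test.
Cnn2: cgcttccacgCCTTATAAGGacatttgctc
Myl6: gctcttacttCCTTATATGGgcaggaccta
Vcl: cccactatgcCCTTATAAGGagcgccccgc
Myl9: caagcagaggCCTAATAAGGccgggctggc
Fhl2, first start: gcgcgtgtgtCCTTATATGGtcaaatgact
Fhl2, second start: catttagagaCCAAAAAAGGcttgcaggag

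With chemerin-9, genes of the contractile cytoskeleton were mostly lower, whereas the YAP and TEAD genes split in both directions, as did all genes tested. Of the 44 genes, 43 passed the filter on low counts, and Tagln did not. The test throughout is edgeR's quasi-likelihood test with Benjamini-Hochberg adjustment over all 14184 genes tested, at an adjusted p under 0.05. By this test 28 of the 43 genes (65.1%) were lower and 4 (9.3%) were higher with chemerin-9, while 11 did not pass, so that 74.4% passed in either direction. Among all genes tested, 51.7% passed, 26.1% lower and 25.6% higher. Each count by role below is to be read beside these shares. The median log2 fold change was −0.29 over the 43 genes and −0.0037 over all genes tested, and the range over the 43 genes was −1.62 to 0.32. The median absolute change was 0.31 over the 43 genes against 0.27 over all tested. Of the 43 genes, 30 were lower and 6 were higher with chemerin-9 without overlap between the 3 libraries of each group. Among all tested genes these shares were 29.2% and 29.3% (58.5% in either direction).

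Large changes in the set were all falls. A change of at least 0.5 on the log2 scale with an adjusted p under 0.05 was seen for 8 of the 43 tested genes. These were Acta1, Actg1, Lmod1, Vim, Pdlim7, Ankrd1, Cnn2 and Myl12a. Of all genes tested, 19.8% had such a change (9.79% lower and 9.99% higher). Summed, the 44 genes took 2.07%, 2.05% and 2.11% of all counts in the I/R libraries and 1.75%, 1.75% and 1.73% in those with chemerin-9. Mitochondrial transcripts and the ribosomal RNA gene Rn18s also took smaller shares with chemerin-9, at 2.56% to 2.64% against 2.81% to 2.94% and at 0.261% to 0.306% against 0.381% to 0.517%, and their part in the result was not tested. With library sizes taken as total counts, without the TMM composition factor, 60.7% in place of 49.6% of all calls were higher, and the set had 25 lower and 7 higher. Over the 17 alternative settings, 22 of the 28 falls and 3 of the 4 rises passed in every one.

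**Figure D1:**
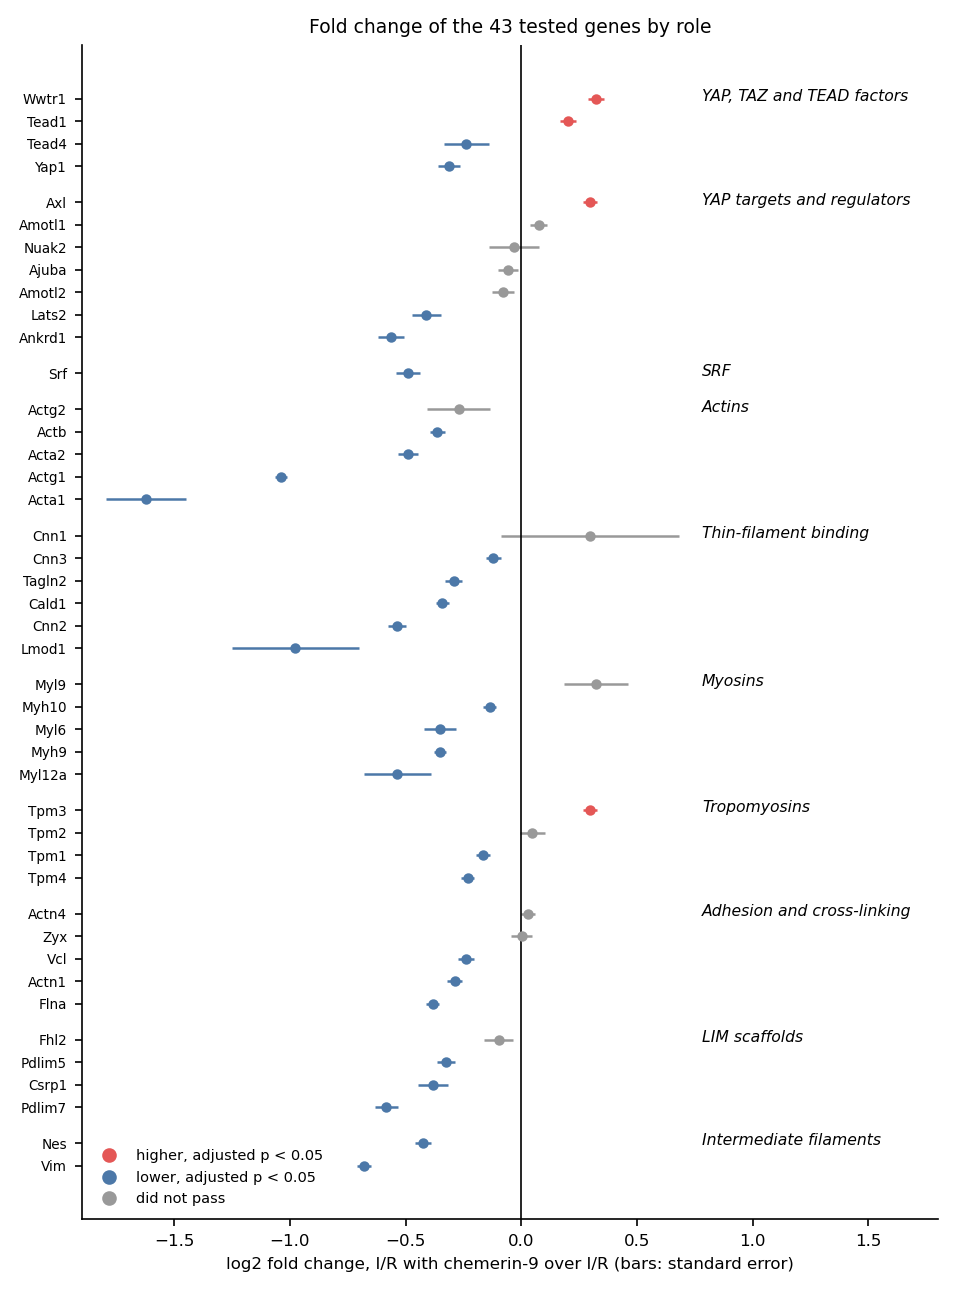
Log2 fold change (I/R with chemerin-9 over I/R, x axis) of the 43 tested genes, ordered within each role, with bars for the standard error and colours for the edgeR call at an adjusted p under 0.05. Blue points to the left of 0 fill the actins, thin-filament proteins, myosins, LIM scaffolds and intermediate filaments, where no gene was called higher, while the YAP, TAZ and TEAD factors hold 2 genes on each side.

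The 4 factors of the YAP route all passed the test, 2 in each direction. Yap1 (chr9:7931999-8004596, GRCm38), the co-activator that gives the pathway its name, stood at 108, 110.2 and 104 CPM in the I/R libraries and at 84.9, 82.6 and 91.5 CPM with chemerin-9. Each chemerin-9 library was below each I/R library, and Yap1 fell by 0.31 on the log2 scale (SE 0.05, adjusted p = 8.1e-05). Its paralog Wwtr1 (chr3:57455649-57575910), which encodes TAZ, went the other way, from 177, 175 and 181 CPM to 226, 219.8 and 222 CPM. That rise of 0.32 (SE 0.04, adjusted p = 2.2e-06) was the largest among the genes of the set that were called higher. Per kilobase of transcript, Wwtr1 was the more abundant of the 2 in both groups, at 37.8 against 25.7 CPM per kb in I/R and 47.4 against 20.7 CPM per kb with chemerin-9.

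The TEAD genes encode the DNA-binding partners of both co-activators. Tead1 was at 253 to 262 CPM in I/R and 291 to 306 CPM with chemerin-9, without overlap, a log2 fold change of 0.20 (SE 0.04, adjusted p = 2.1e-04). That call was lost after correction for transcript GC content and length, where the change was 0.07 and the adjusted p 0.052. Tead4 was much lower per kilobase, at 5.8 against 26 CPM per kb for Tead1 in I/R, and its libraries lay at 17.8 to 17.9 CPM in I/R and 13.8 to 16 CPM with chemerin-9. Its change of −0.24 (SE 0.10) passed narrowly, with an adjusted p of 0.049, and did not pass in 14 of the 17 alternatives, where the adjusted p reached 0.22.

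Among the 7 YAP targets and regulators, 2 were lower (28.6%), 1 was higher (14.3%) and 4 did not pass, with a median log2 fold change of −0.06. Ankrd1, a stress-responsive ankyrin repeat protein whose promoter is shown above, gave 87.3, 88.6 and 96.8 CPM in I/R and 59.2, 61.2 and 64.3 CPM with chemerin-9. The groups were well apart, and Ankrd1 fell by 0.56 on the log2 scale (SE 0.05, adjusted p = 7.2e-07). Lats2, a Hippo kinase that is itself induced by YAP, was at 51 to 55.6 CPM in I/R and 38.3 to 40.6 CPM with chemerin-9, a fall of 0.41 (SE 0.06, adjusted p = 5e-05). A further transcript model over the Lats2 locus is nearly identical in sequence, so its counts are less certain.

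Axl, a receptor tyrosine kinase for Gas6, was the target that rose. Its libraries held 449, 439 and 446 CPM in I/R and 536, 554 and 547 CPM with chemerin-9, which gave a log2 fold change of 0.30 (SE 0.03, adjusted p = 1.3e-06). The scaffold genes Amotl1 and Amotl2, which encode angiomotin-like proteins that bind YAP, had changes of 0.08 (adjusted p = 0.095) and −0.08 (adjusted p = 0.17). Ajuba, a LIM protein that restrains LATS kinases, had −0.06 (adjusted p = 0.29) and the kinase gene Nuak2 −0.03 (adjusted p = 0.82). Nuak2 was also low, at 10.8 to 11.4 CPM over all 6 libraries.

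Srf itself was lower with chemerin-9. Srf (chr17:46546839-46556162) had 84.4, 81 and 80.5 CPM in I/R and 60.7, 59.8 and 54.6 CPM with chemerin-9. The lowest I/R library was well above the highest with chemerin-9, and Srf fell by 0.49 on the log2 scale (SE 0.05, adjusted p = 2.4e-06). The genes of its co-activators, Mrtfa and Mrtfb, which are not of the set, had changes of −0.06 (adjusted p = 0.32) and 0.08 (adjusted p = 0.28) at levels of 69.5 to 72.6 and 49 to 51.7 CPM as group means. Mrtfb passed only with total counts as library sizes (adjusted p = 0.048).

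All 5 actin genes had lower levels in each chemerin-9 library than in each I/R library, and 4 of them passed the test. Of all genes tested, 29.2% were lower without overlap in this way. Actg1 (chr11:120345690-120348542), cytoplasmic gamma actin, had 1629, 1618 and 1618 CPM in I/R and 791, 803 and 776 CPM with chemerin-9. It was 2.05-fold lower, a log2 fold change of −1.04 (SE 0.03, adjusted p = 5.6e-13), the smallest p in the set. Acta1 (chr8:123891769-123894751), the skeletal muscle alpha actin, was scarce in both groups and fell furthest, from 9.39, 9.44 and 7.95 CPM to 3.49, 2.8 and 2.45 CPM. These values rest on 120 to 131 counts per I/R library and 35 to 40 with chemerin-9, and the change was −1.62 (SE 0.17, adjusted p = 2e-06), or 3.08-fold.

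Smaller falls were measured for the most abundant actin and for the smooth muscle actin that marks myofibroblasts. Actb (chr5:142903115-142906754), cytoplasmic beta actin and a common reference gene, had 3595, 3565 and 3924 CPM in I/R and 2860.3, 2913 and 2838 CPM with chemerin-9. The fall was 0.36 on the log2 scale (SE 0.03, adjusted p = 3.1e-07), well short of that of Actg1, and I/R replicate 3 was the highest library. Acta2 (chr19:34241090-34255336), smooth muscle alpha actin, had 155, 166 and 168 CPM in I/R and 112, 116 and 119.96 CPM with chemerin-9, a fall of 0.49 (SE 0.04, adjusted p = 3.2e-07). Actg2, the enteric smooth muscle actin, stood at 7.99 to 9.35 CPM against 6.71 to 7.55 CPM, and its change of −0.27 (SE 0.14) did not pass (adjusted p = 0.11).

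**Figure D2:**
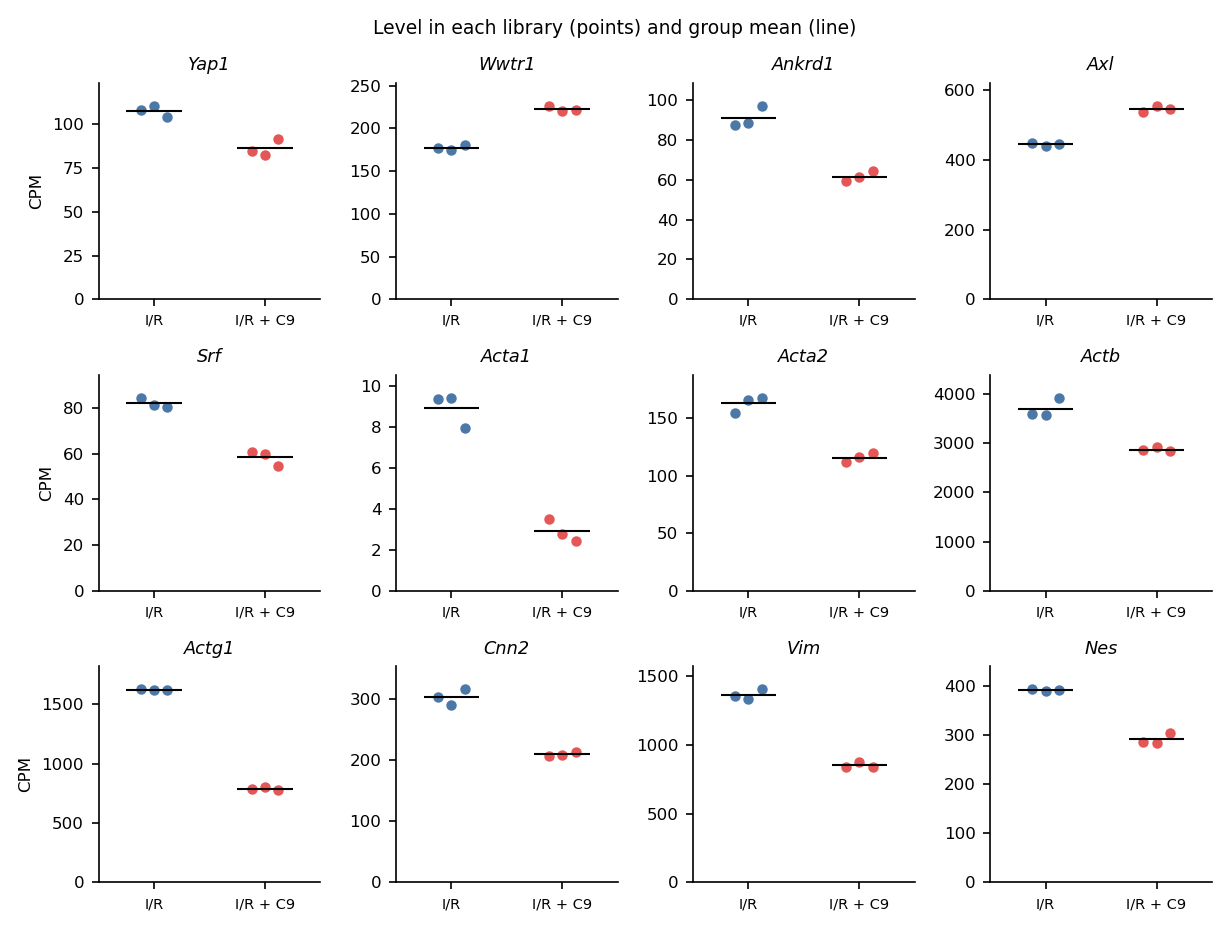
Level in CPM (y axis, from 0) of 12 genes in each library (points, 3 per group) with the group mean as a line, for I/R (blue) and I/R with chemerin-9 (red). In each panel the groups are apart: Wwtr1 and Axl are higher with chemerin-9, and the other 10 genes are lower.

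Near-identical copies touch some of these values. Actg1 has 6 processed copies at 95% identity or more, and reads could be split between them. Gm12715, the copy with the most counts at 2.23% of those of Actg1, had a log2 fold change of −0.99 (adjusted p = 1.7e-05) and Gm8399 one of −0.98 (adjusted p = 1.7e-04). In all, 8 of the 44 genes had a match at 95% identity or more in another annotated gene. These were Actg1, Actn1, Cnn3, Lats2, Myl12a, Myl6, Tpm3 and Tpm4. For Actn1 and Lats2 the match was a model that overlaps the gene itself, on the opposite strand for Actn1 and on the same strand for Lats2.

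Because the actins fell by unequal amounts, the make-up of the actin pool moved. Of the counts per kilobase of the 5 actins, Actb took 67%, 66.8% and 68.9% in I/R and 76.1% in each chemerin-9 library. Actg1 took 29.9%, 29.8% and 27.9% in I/R and 20.7%, 20.6% and 20.5% with chemerin-9. The muscle actins Acta1, Acta2 and Actg2 together took 3.17%, 3.38% and 3.21% in I/R and 3.19%, 3.22% and 3.41% with chemerin-9. Their mean share differed by 0.02 percentage points (exact two-sided permutation test over libraries, p = 0.6), within the spread of either group (SD 0.11 and 0.12, n = 3). The smallest p this test can give with 3 against 3 libraries is 0.1.

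**Figure D3:**
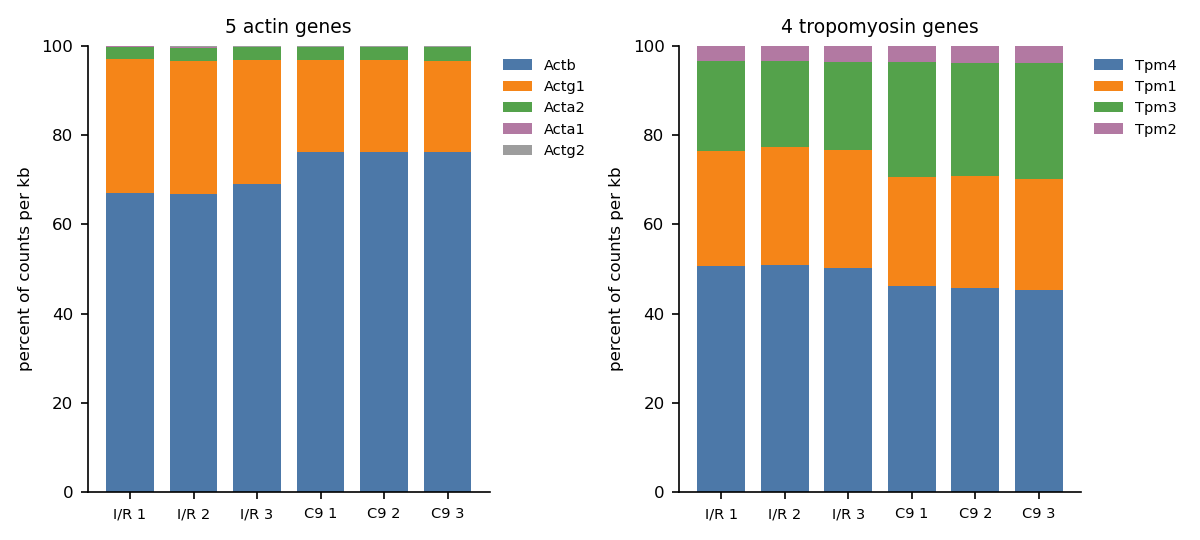
Stacked bars of each gene's percent of the counts per kilobase of transcript of the 5 actins (left) and of the 4 tropomyosins (right), 1 bar per library. From I/R to chemerin-9 the Actg1 band goes from 27.9% to 29.9% down to 20.5% to 20.7%, and the Tpm3 band from 19.4% to 20.2% up to 25.4% to 26%.

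Markers of smooth muscle, pericytes and fibroblasts, cells known to carry contractile genes in kidney, had calls in both directions. Any link between these markers and the changes of the actins was not tested. Of 10 listed smooth muscle and pericyte markers, 5 had a row, and they summed to 153 to 160.04 CPM in I/R and 166 to 176 CPM with chemerin-9. Mcam and Pdgfrb rose (0.41, adjusted p = 2.5e-04, and 0.49, adjusted p = 2.9e-05), Notch3 fell by 0.43 (adjusted p = 9.2e-06), and Des and Cspg4 had changes of 0.27 and 0.19 that did not pass (adjusted p = 0.16 and 0.11). For fibroblasts, 7 of 9 listed markers had a row, and their sum was 3478 to 3576 CPM with I/R only. It was 3218 to 3325 CPM when chemerin-9 was added. Most of this sum was Fn1, with group means of 2322 (I/R) and 2122 CPM (chemerin-9). Col1a1 followed at 771 and 800.2 CPM, and Col1a2 at 398 and 323 CPM. Pdgfra (8.45 and 6.75 CPM), Dcn (2.13 and 2.53 CPM) and Postn (0.444 and 0.405 CPM) were low. Col3a1 was higher, Col1a2 and Fn1 were lower, Col1a1, Pdgfra and Dcn did not pass, and Postn was under the filter. Skeletal muscle markers, 3 of 8 with a row, summed to 1.78 to 2.49 CPM and 1.31 to 2.1 CPM, mostly Actn3. Cardiac markers, 3 of 6, summed to 6.17 to 7.2 CPM and 10.1 to 12.4 CPM, nearly all Tnnt2, which rose by 0.83 (adjusted p = 1.9e-04). The 3 erythroid genes with a row, of 5, summed to at most 3.68 CPM, and Hbb-bs was at 0 in all libraries.

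Of the 7 proteins that bind or cap thin filaments, 5 fell, 1 did not pass and Tagln was under the filter, and the median of the 6 tested was −0.32. Cnn2, the calponin of non-muscle cells, had 304, 290.4 and 316 CPM in I/R and 207, 208 and 213 CPM with chemerin-9. Its fall of 0.54 (SE 0.04, adjusted p = 2.8e-08) was the largest among the abundant genes of this role. Cald1, caldesmon, which holds tropomyosin and actin in the off state, went from 1031 to 1046 CPM down to 802 to 838 CPM, a change of −0.34 (adjusted p = 1.4e-07). Tagln2, a transgelin found in many cell types, changed by −0.29 (adjusted p = 1.4e-05), from 184 to 195 CPM to 151 to 156 CPM. Cnn3, acidic calponin, changed by only −0.12 (adjusted p = 0.006), and did not pass with total counts as library sizes (−0.05, adjusted p = 0.20).

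The smooth muscle members of the role were near the limit of detection. Lmod1, a leiomodin that nucleates actin in smooth muscle, had 3.05, 4.68 and 3.58 CPM in I/R and 1.92, 2.58 and 1.26 CPM with chemerin-9. The groups did not overlap, and the change was −0.98 (SE 0.27, adjusted p = 0.0078), but without chemerin-9 replicate 3 it was −0.74 and did not pass (adjusted p = 0.051). Cnn1, basic calponin, had 0.546 to 1.1 CPM in I/R and 0.784 to 1.11 CPM with chemerin-9, overlapping, with a change of 0.30 (SE 0.38, adjusted p = 0.54). Tagln, the smooth muscle transgelin SM22, had 1, 7 and 16 counts in the I/R libraries, against 2, 0 and 4 with chemerin-9 and 30 in all, and a difference was not detectable at this depth. On the other strand, its exons overlap those of Gm48529 by up to 645 bases and those of Pcsk7 by up to 108 bases. Over all libraries Gm48529 had 66 counts and Pcsk7 had 2913. No source used here gives the strand setting of the counting.

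Non-muscle myosin genes fell, both for the motor chains and for 2 of the light chains. Myh9, the heavy chain of myosin IIA, went from 2754, 2675 and 2815 CPM to 2165, 2181 and 2115 CPM, a change of −0.35 (SE 0.03, adjusted p = 5e-08). Myh10, the heavy chain of myosin IIB, changed less, from 630.2 to 651 CPM down to 576 to 583 CPM (−0.14, SE 0.03, adjusted p = 0.0012), and did not pass with total counts as library sizes (−0.07, adjusted p = 0.069). As a percent of the counts per kilobase of both heavy chains, Myh10 had 18.4%, 18.4% and 17.6% in I/R and 20.4%, 20.3% and 20.6% with chemerin-9. That difference of 2.31 percentage points was without overlap and gave the smallest p the exact permutation test allows, 0.1, which cannot pass 0.05.

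The light chains depended more on single libraries. Myl6, the essential light chain, had 487, 522 and 629 CPM in I/R and 408, 443 and 434 CPM with chemerin-9, a change of −0.35 (SE 0.07, adjusted p = 5.2e-04) that did not pass with a robust prior (adjusted p = 0.063). Myl12a, a regulatory light chain, had 75.2, 88.1 and 128 CPM in I/R and 56.6, 72.2 and 72.8 CPM with chemerin-9. Its change was −0.54 (SE 0.14, adjusted p = 0.0062), and without I/R replicate 3, the deepest library, it was −0.28 (adjusted p = 7.8e-04). With DESeq2 and with a robust prior Myl12a did not pass (adjusted p = 0.086 and 0.16). Myl9, the regulatory light chain of smooth muscle, was the one with higher levels in each chemerin-9 library, at 7.23 to 8.55 CPM against 6.11 to 6.74 CPM. Its change of 0.32 (SE 0.14) did not pass (adjusted p = 0.063). Myl9 did pass as higher after the GC and length correction (0.45, adjusted p = 0.0096) and with total counts as library sizes (0.39, adjusted p = 0.027).

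Tropomyosin genes moved apart from one another. Tropomyosins are coiled-coil proteins that lie along the actin filament and set which motors and binding proteins reach it. Tpm3 rose from 421, 408 and 411 CPM in I/R to 505, 505 and 512 CPM with chemerin-9 (log2 fold change 0.30, SE 0.03, adjusted p = 1.4e-06), the only rise called among the 29 tested genes of the actin cytoskeleton. Tpm4 went the other way, from 1006, 1023 and 1000.1 CPM to 864, 868 and 847 CPM (−0.23, SE 0.03, adjusted p = 5.3e-06). Tpm1 changed by −0.17 (SE 0.03, adjusted p = 2.6e-04), from 694 to 716 CPM down to 619 to 640.2 CPM, and by −0.10 with total counts as library sizes. Tpm2 overlapped between the groups (0.05, SE 0.05, adjusted p = 0.49).

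By counts per kilobase, Tpm3 made up 20.2%, 19.4% and 19.6% of the 4 tropomyosins in I/R and 25.7%, 25.4% and 26% with chemerin-9, while Tpm4 had 50.2% to 50.9% and then 45.2% to 46.2%. The genes Tpm1 and Tpm2 together held 29.2%, 29.7% and 30.2% in I/R and 28.1%, 28.9% and 28.8% with chemerin-9. The groups did not overlap, with a difference of −1.09 percentage points and an exact permutation p of 0.1, again the smallest possible. Tpm3 shares most of its sequence with Tpm3-rs7, whose counts were 7.39% of those of Tpm3 and whose change of 0.21 did not pass (adjusted p = 0.052).

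Of the 5 adhesion and cross-linking genes, 3 fell and 2 did not pass. Flna, filamin A, which cross-links actin into networks under the membrane, went from 2219, 2221 and 2128 CPM to 1721, 1642 and 1676 CPM (−0.38, SE 0.03, adjusted p = 3.8e-08). Actn1, an alpha-actinin of stress fibres, changed by −0.29 (adjusted p = 4.6e-06), from 366 to 373 CPM to 293 to 309 CPM. Vcl, vinculin of focal adhesions, changed by −0.24 (adjusted p = 4e-05), from 393 to 412 CPM to 332 to 351 CPM, and its exons overlap those of Ap3m1 on the other strand by up to 2090 bases. Actn4, the alpha-actinin of podocyte foot processes, had means of 509 ± 12.8 and 519.99 ± 5.62 CPM (SD, n = 3; adjusted p = 0.46). Zyx, zyxin, which enters focal adhesions under tension, had a mean of 167 CPM in both groups (log2 fold change 0.0013, SE 0.04, adjusted p = 0.98), and its libraries overlapped at 158 to 176 and 162 to 172 CPM.

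Of the LIM-domain scaffolds, 3 of 4 fell. Pdlim7, enigma, which links kinases to the actin cytoskeleton, had 91.6, 92.8 and 92.5 CPM in I/R and 59.9, 64.7 and 60.2 CPM with chemerin-9. The I/R libraries were nearly equal and all above those with chemerin-9, and the change was −0.58 (SE 0.05, adjusted p = 1.4e-07). Csrp1, a cysteine-rich LIM protein of smooth muscle, changed by −0.38 (adjusted p = 1.5e-04) and Pdlim5 by −0.33 (adjusted p = 7.1e-06). Fhl2, a LIM-only co-factor that competes with MRTF for SRF, overlapped between the groups at 60.05 to 68.2 and 56.6 to 64.7 CPM (−0.10, SE 0.06, adjusted p = 0.21).

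Both intermediate filament genes fell. Vim (chr2:13573927-13582826), vimentin, had 1359, 1332 and 1407 CPM in I/R and 843, 878 and 838 CPM with chemerin-9. It was 1.6-fold lower, with a log2 fold change of −0.68 (SE 0.03, adjusted p = 2.6e-10). Nes (chr3:87971078-87980451), nestin, which assembles with vimentin and marks progenitors, podocytes and injured tubule cells, had 394, 391 and 392 CPM in I/R and 287, 284 and 304 CPM with chemerin-9, a fall of 0.43 (SE 0.03, adjusted p = 1.1e-07). Both kept their call in each of the 17 alternatives.

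Set side by side, the YAP and TEAD roles, the actin cytoskeleton and the intermediate filaments had different counts. In the 11 genes of the YAP, TAZ and TEAD roles, 4 were lower (36.4%) and 3 were higher (27.3%), with a median log2 fold change of −0.06. In the 29 tested genes of the actin cytoskeleton, 21 were lower (72.4%) and 1 was higher (3.45%), with a median of −0.29. Of all genes tested, 26.1% were lower and 25.6% were higher. In the 2 intermediate filament genes the median was −0.55. The difference between these roles was not tested, and genes are not replicates. Per kilobase of transcript in I/R, the most abundant genes of the set were Actb at 1924, Actg1 at 831, Vim at 623, Tpm4 at 474 and Myh9 at 369.7 CPM per kb, and all 5 were lower with chemerin-9. The order of the first 4 became Actb at 1495, Actg1 at 405, Tpm4 at 404 and Vim at 389 CPM per kb, in which the last 3 lay close together. Libraries of a group were close, with a median coefficient of variation over the 43 genes of 2.78% in I/R and 2.98% with chemerin-9.

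**Figure D4:**
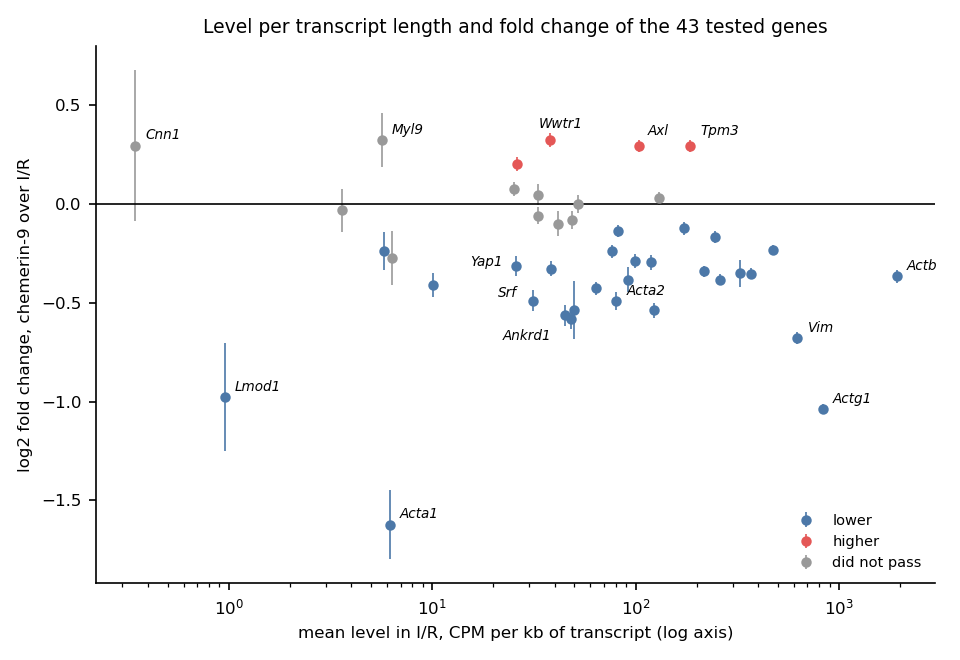
Mean level in I/R (CPM per kilobase of transcript, log axis) against the log2 fold change (chemerin-9 over I/R) for the 43 tested genes, with bars for the standard error. Falls are seen from Lmod1 at 0.955 to Actb at 1924 CPM per kb, and the widest error bars are those of Cnn1 and Lmod1, the genes with the lowest levels.

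Other genes of these pathways were described by lists that leave out the 44, each read beside the 26.1% lower and 25.6% higher of all genes tested. Among the 21 Hippo kinases and regulators, 8 were lower (38.1%) and 7 were higher (33.3%), with a median log2 fold change of −0.02. Vgll3, a TEAD co-factor, went from 162 ± 5.36 to 98 ± 4.35 CPM (SD, n = 3; −0.73, adjusted p = 6.4e-09), and Tead2 from 74.5 ± 2.72 to 50.02 ± 2.66 CPM (−0.57, adjusted p = 7.6e-07). Frmd6, an upstream activator of the Hippo kinases, rose from 60.1 ± 2.76 to 94.9 ± 0.536 CPM (0.66, adjusted p = 4.4e-08). Wtip, a relative of Ajuba, changed by −0.31 (adjusted p = 0.0056) and did not pass after the GC and length correction (adjusted p = 0.23). After that correction 3 genes of the list were higher, and with total counts as library sizes 4 were lower.

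The largest falls in these further lists were those of Ccn1 and Ccn2, the matricellular genes most used as YAP readouts. Ccn1 had 851, 840.4 and 862 CPM in I/R and 259, 282 and 263 CPM with chemerin-9 (−1.67, SE 0.04, adjusted p = 7.8e-14). Ccn2 had 79.2, 82.3 and 86.7 CPM in I/R and 23.9, 23.4 and 22.5 CPM with chemerin-9 (−1.83, SE 0.06, adjusted p = 8.3e-12), 3.57-fold lower. Yet the other YAP targets as a list, 16 tested, had 7 lower (43.8%) and 5 higher (31.2%) with a median of −0.04. Tgfb2 (0.86, adjusted p = 0.014) and Nt5e (0.98, adjusted p = 0.028) were among the higher, at means of 1.11 to 2.52 CPM. Nt5e did not pass without either of I/R replicates 1 and 2 or of chemerin-9 replicates 1 and 2 (adjusted p 0.069 to 0.15), and Tgfb2 did not without I/R replicate 3 (adjusted p = 0.052).

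A further list joined the co-activator genes Mrtfa and Mrtfb with other SRF targets, 17 tested in all. Of these, 6 were lower (35.3%), 4 were higher (23.5%) and 7 did not pass, Mrtfa and Mrtfb among them (median 0.04). With total counts as library sizes 7 were higher, Mrtfb among them. Fhl1, a LIM protein of striated muscle, fell from 86.5 ± 3.78 to 40.1 ± 2.22 CPM (−1.11, adjusted p = 1.1e-09) and Tgfb1i1, the focal adhesion protein Hic-5, from 27.6 ± 1.45 to 15.7 ± 2.59 CPM (−0.81, adjusted p = 1.8e-05). Mical2, an enzyme that oxidises nuclear actin and so favours MRTF, rose from 50.5 ± 2.28 to 94.4 ± 5.54 CPM (0.90, adjusted p = 7.7e-09). Egr2, an immediate-early gene driven by SRF with the ETS co-factors, rose from 8 to 11 counts per library to 23 to 29 counts (1.56, adjusted p = 0.0011).

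Of the other intermediate filament and linker genes, 11 tested, 5 were lower (45.5%) and 2 were higher (18.2%; median −0.25). Plec, plectin, which ties vimentin to actin and to adhesions, fell from 749.7 ± 25.6 to 469 ± 6.22 CPM (−0.68, adjusted p = 5.2e-10), a log2 change equal to that of Vim to 2 decimals. The lamin genes Lmna and Lmnb1 each changed by −0.34 (adjusted p = 5e-06 and 2.1e-04). Krt19, a keratin of collecting duct and injured tubules, was among the higher (0.39, adjusted p = 0.011), but did not pass without I/R replicate 2 (adjusted p = 0.054) or chemerin-9 replicate 2 (adjusted p = 0.068).

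**Figure D5:**
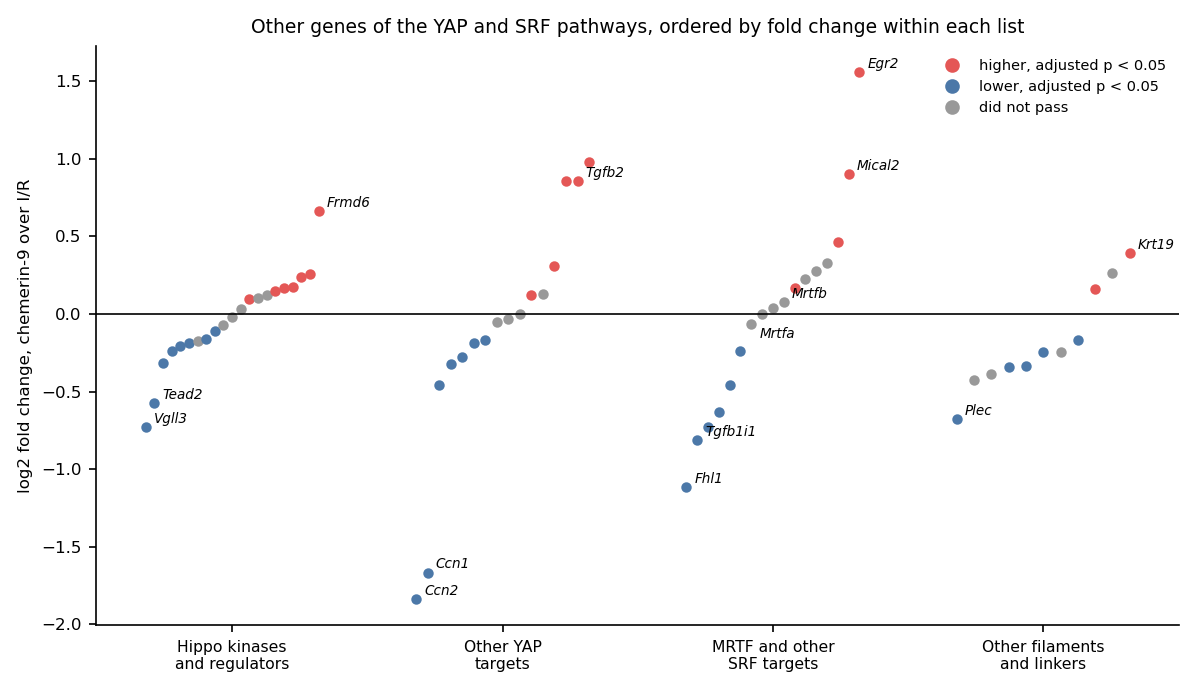
Log2 fold change (chemerin-9 over I/R, y axis) of the 65 tested genes of 4 further lists, each list ordered from low to high, coloured by the edgeR call. Ccn1 at −1.67 and Ccn2 at −1.83 lie far below the other points of their list, and each list has points on both sides of 0.

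Read against the promoter letters, 8 of the 38 genes with a window (21.1%) held a CArG box, against 1.63% of all 32851 windows in the RefSeq table. Of these 8, Srf, Actg1, Acta1, Cnn2, Myl6 (at a start inside the gene) and Vcl were lower, none was higher, and Myl9 and Fhl2 did not pass. The set was drawn up in part from known SRF targets, so the first share describes the choice of genes. Over all tested genes with a window, 155 had a CArG box, the 8 of the set among them. Of the 155, 34.8% were lower and 23.9% were higher (median −0.07). Of the tested genes without a box, 27.7% were lower and 27.7% were higher (median 0.0015). TEAD hexamers were found in 18 of the 38 genes (47.4%) and in 14.7% of all windows. Of those 18, 13 were lower, 2 were higher (Wwtr1 and Axl) and 3 did not pass. Over all tested genes, 27.7% of the 1391 with a TEAD hexamer were lower and 27.2% were higher, close to 27.9% and 27.7% of those without. Acta1 and Vcl held both motifs, which did not overlap in either. These matches describe letters in a short window and not binding, and both factors are known to act through distant elements too.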

How the data were processed

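The authors deposited raw counts per gene symbol, per the file headers and the whole-number values. HISAT2, HTSeq, DESeq 1.18.1 and mm10 are named per the submitters' processing notes, and the libraries were stranded mRNA libraries per the labels' protocols. Of 25216 rows, 27 repeated a symbol and were dropped. Coordinates matched GRCm38 for 97.5% of the genes in GENCODE M21, whose longest coding transcript gave each length per kilobase. All counts were fitted with edgeR 4.0.16 (R 4.3.3; filterByExpr, TMM, quasi-likelihood, group alone), and the procedure was tested on simulated data. CPM are counts over the TMM-adjusted library size. The standard error is the log2 fold change over the square root of F. The biological coefficient of variation was 5.18%. Copies were searched with BLAST 2.17.0 at 95% identity over 50% of the shorter transcript. The alternatives were RLE, upper-quartile and total-count scaling, DESeq2 1.42.0, limma-voom 3.58.1, a robust prior, 2 filters on low counts, a replicate block, removal of the trend on GC content and length (mgcv 1.9.3), both together, and each library left out. Values in all libraries are given for genes changed by at least 0.5 on the log2 scale, for Yap1, Wwtr1, Srf, Acta2, Actb, Vim and Nes, for Tagln, and for some others chosen after their values were seen. From each further list up to 4 genes past the threshold with the largest change at a mean of at least 1 CPM were named, with Ccn1, Ccn2, Mrtfa and Mrtfb. The members, lists and tests were chosen with earlier results of these data known. Of 5 further gene lists, 1 is not reported here, so the lists shown do not cover these pathways as a whole.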

Additional observations from a re-analysis of the deposited data

How the results depend on the processing

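The count of all genes changed, 7336 of 14184, ranged over the 17 alternatives from 6312 (DESeq2) to 7747 (no filter on low counts), and the 28 lower genes of the set ranged from 25 to 28. The 4 higher genes became 7 with total counts as library sizes, where Amotl1, Myl9 and Actn4 joined. They became 6 after the correction for GC content and length, where Myl9, Tpm2 and Actn4 joined and Tead1 was lost. Total counts also gave 4 lower Hippo genes and 7 higher genes in the list of MRTF genes and SRF targets. Without the filter 4 other filament genes were higher. The GC and length correction left 3 higher Hippo genes, with or without the replicate block. Leaving out single libraries gave 5 to 8 lower Hippo genes, 3 to 5 higher YAP targets and 0 to 2 higher filament genes. The muscle actin share difference changed sign within its spread, from −0.0503 to 0.0837 percentage points, at −0.0196 without I/R replicate 1, −0.00368 without I/R replicate 3 and −0.0503 without chemerin-9 replicate 3. Amotl2 passed without I/R replicate 3 (−0.13, adjusted p = 0.0063). The cause of these shifts was not tested. Deviations from the group mean correlated at r = 0.102, −0.052 and 0.042 in same-numbered libraries and at −0.14 to 0.108 in differently numbered ones. With 3 libraries per group this cannot show or exclude a pairing, and the labels name none. With the replicate block 7300 genes passed, with 4 of the set higher and 27 lower. At 30 counts for Tagln over all libraries together and 9 to 15 counts per library for Cnn1, depth limits what can be seen.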
